A study of Ovis aries with 8 samples.

Results

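The chains of the major histocompatibility complex (MHC), the proteins that show peptides to T cells, were described in the lungs of late-gestation sheep fetuses. Probes were taken where the array's own annotation named OVAR-DRB1 or OVAR-DQA1, or where the probe description spoke of MHC class I, MHC class II, the major histocompatibility complex or a histocompatibility antigen. This gave 24 of the 15008 non-control probes of the array, 21 by description and 3 by gene name alone. They were 15 probes for class I chains, 8 for class II chains and 1 for the class I related protein MR1. The study compared 4 fetuses given aldosterone, the adrenal steroid that acts on the mineralocorticoid receptor, with 4 control fetuses given vehicle. The infusions delivered 0.2 mg in 48 hours and began 5 days after surgery. They were made in 4 sets of twins near gestation day 130, where term is day 147, and 1 twin of each set received the hormone, so every control shared its dam with a treated fetus. Lung RNA of each fetus was labelled with Cy3 and hybridised to its own 1-colour array.

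Class I molecules are made of a polymorphic heavy chain and the light chain B2M, stand on nearly all nucleated cells and present peptides made inside the cell. Class II molecules pair an alpha with a beta chain, in sheep mainly DR and DQ, and are carried by dendritic cells, macrophages and B cells, and in the lung also by alveolar type II cells. MHC genes are known for their many alleles, and sheep haplotypes differ in the class I genes they express, so a short probe can report some of the chains an animal makes and not others. The alleles that these fetuses carried were not analysed here.

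Each probe is a single 60-base sequence, and the sequences that follow show how close some of them lie to each other and which stand alone. The files give the probes no position in the sheep genome. In RefSeq's gene list for the assembly ARS-UI_Ramb_v3.0, which is used here for names and neighbours only, OVAR-DRB1, the DQ alpha gene DQA, DYA and the class I gene OVAR were all listed on chromosome 20, with 2 genes between DQA and OVAR-DRB1 and 362 between DYA and OVAR-DRB1. A DQA1 probe and a DQA2 probe lay at the same place of the chain and differed at 4 bases, in capitals:
OVAR-DQA1, probe 2: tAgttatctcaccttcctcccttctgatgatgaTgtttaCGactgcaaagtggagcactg
DQA2, M93431: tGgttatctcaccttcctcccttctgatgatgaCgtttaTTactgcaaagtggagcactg
A probe for OVAR and one for the class I allele ShB (U03092) also differed at 4 bases, in capitals:
OVAR, probe 2: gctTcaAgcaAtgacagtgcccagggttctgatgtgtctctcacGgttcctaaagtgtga
ShB, U03092: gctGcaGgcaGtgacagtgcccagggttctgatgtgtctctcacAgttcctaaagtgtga
The class I and class II probes whose lungs stood furthest apart, apart from the OVAR-DRB1 allele C1 shown for comparison with allele G1, had no capitals because none was aligned with another probe. Of the OVAR-DQB1 probe and of the first OVAR-DQA1 probe the first 30 bases are given:
OVAR-DQB1, L08792: gggaagcacattgagaccattacctggtta
OVAR-DQA1, probe 1: aatccaccaatgaccctatactaatatatc
TC16824, class I: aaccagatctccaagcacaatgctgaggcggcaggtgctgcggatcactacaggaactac
EF489531, class I: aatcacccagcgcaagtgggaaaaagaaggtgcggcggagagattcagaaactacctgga
OVAR-DRB1 allele G1, DQ659131: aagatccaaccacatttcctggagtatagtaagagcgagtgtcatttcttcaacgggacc
OVAR-DRB1 allele C1, DQ659127: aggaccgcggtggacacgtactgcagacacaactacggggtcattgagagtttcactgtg

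All values below are log2 signal relative to the 75th percentile of the same array, so 0 means as bright as that percentile, and they compare lungs for 1 probe and not probes with each other. All 8 arrays lay on 1 slide, replicates 1 and 2 of both groups in its first row and replicates 3 and 4 in its second, and between 76.49% and 85.41% of spots were well above background. The alveolar type II genes SFTPA1, SFTPB and SFTPC were well above background in every lung, with SFTPC between 7.97 and 8.67. Of the 24 MHC probes, 23 were well above background on at least 4 arrays and were tested together with the rest of the array. The DYA probe, for a class II alpha chain of ruminants, was not tested. It stood at -7.16, -8.38, -7.02 and -7.65 in aldosterone lungs, none well above background, and at -5.59, -7.03, -7.58 and -6.83 in control lungs, where the lungs numbered 1 and 4 were. No MHC spot was saturated. Standard errors and p-values below are from the fit on group alone, which ignores the twin sets, unless the replicate number is named as a block. The 4 arrays per group limit the precision of each difference, and in RNA from whole lung fewer cells of a type and less RNA per cell cannot be told apart.

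The widest spread between lungs on the array was that of a class II chain. OVAR-DQB1, the beta chain of DQ (L08792), stood at 3.79, -6.18, 3.48 and 0.17 in aldosterone lungs 1 to 4, against 3.98, -6.95, 0.23 and 0.88 in control lungs 1 to 4. Both lungs numbered 2 were thus near or below the detection limit, both numbered 1 were bright, both numbered 4 were in between, and the lungs numbered 3 differed, with the aldosterone lung 9.56-fold higher than its control. The signal of control lung 1 was 1150-fold that of aldosterone lung 2, the lowest lung that was still well above background. Its range of 10.93 was the widest of all 12168 tested probes, and it remained so at 10.74 when values were raised to each array's floor, the lowest signal well above background there. The median range of all tested probes was 0.82. The group means of OVAR-DQB1 were 0.32 ± 4.63 with aldosterone and -0.46 ± 4.62 in controls (SD, n = 4 each). The difference of 0.78 ± 2.69 (SE) was far inside the spread of the lungs (limma adjusted p = 0.9998). Much of that spread lay between replicate numbers, whose means had a range of 10.45, while lungs of the same number differed by at most 3.26. With the replicate number as a block in the fit, the standard error was 0.63 and the difference still did not pass (limma adjusted p = 0.8792).

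The first OVAR-DQA1 probe, for the alpha chain of DQ, had the range next in size, 10.24, and 1 lung set it. It stood at -0.40, 0.67, -8.99 and 0.19 in aldosterone lungs and at 0.29, 0.01, 0.21 and 1.25 in control lungs. Aldosterone lung 3 alone was not well above background, with a signal of 2.51 intensity units where the other lungs had 1290 to 2980. Against the floor of that array, -6.87, it was at least 135-fold lower than control lung 3. With values raised to the floors the range was 8.12 and ranked 4. The mean difference of -2.57 ± 1.90 (SE) was the lowest of all 12168 tested probes, and -2.04 with the floor in place of the undetected value, but it did not pass the test (limma adjusted p = 0.9998) and was -0.29 without aldosterone lung 3. It was -1.35 with normexp and quantile normalization, -4.40 with array weights and -0.35 with the deposited log2 values, where the cell of aldosterone lung 3 is empty and that lung drops out of the fit. The second OVAR-DQA1 probe was low in none of the lungs. It stood at -0.15, -0.11, -0.14 and 0.10 in aldosterone lungs, against 0.16, -0.56, -0.19 and 0.93 in controls, a difference of -0.16 ± 0.29 (SE, limma adjusted p = 0.9998). The 2 probes of the same transcript record therefore gave different accounts of aldosterone lung 3.

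An expressed sequence tag outside the MHC annotation, EE746457, was assigned in the files to the same transcript cluster as the first OVAR-DQA1 probe and had a range of 9.48, which was 7.68 and ranked 5 with values raised to the floors. It stood at -0.25, 0.81, -8.67 and -6.07 in aldosterone lungs, against 0.41, 0.24, -5.70 and -4.74 in controls. It was bright in the lungs numbered 1 and 2 of both groups and dim in those numbered 3 and 4, which are also the rows of the slide. The first OVAR-DQA1 probe did not divide the lungs in this way.

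**Figure D1:**
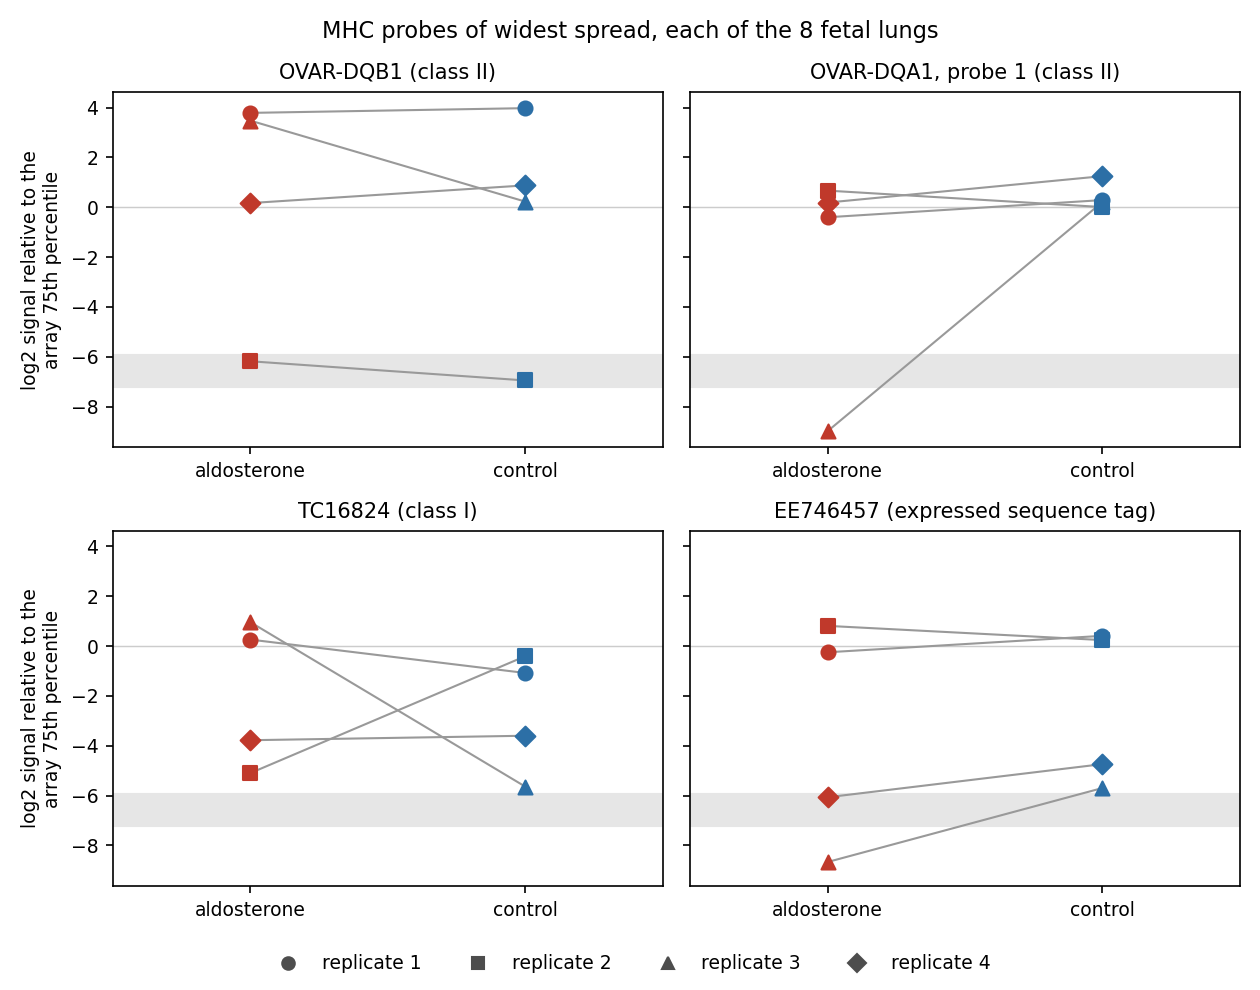
Log2 signal relative to the array's 75th percentile (y axis) of OVAR-DQB1, the first OVAR-DQA1 probe, the class I probe TC16824 and the tag EE746457 in 4 aldosterone lungs (left, red) and 4 control lungs (right, blue). Lines join lungs of the same replicate number, and the grey band is the range of the arrays' floors, -7.23 to -5.93. OVAR-DQB1 is low in both lungs numbered 2, OVAR-DQA1 in aldosterone lung 3 alone.

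Among the class I chains the widest range was that of TC16824, a transcript cluster annotated as a class I antigen. Its values were 0.26, -5.10, 0.96 and -3.78 in aldosterone lungs, against -1.08, -0.41, -5.64 and -3.60 in controls, all well above background. The lungs numbered 2 and 3 lay far apart in opposite directions, aldosterone lung 2 being 4.69 lower and aldosterone lung 3 6.59 higher than the control of the same number, while both lungs numbered 4 were low. The range of 6.59 ranked 22 of 12168, and the mean difference of 0.77 ± 1.57 (SE) did not pass the test (limma adjusted p = 0.9998). Without aldosterone lung 3 it was -0.19, and without control lung 3 it was -0.22.

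EF489531, another class I antigen, was the only class I probe that was higher with aldosterone in all 4 replicate numbers. It stood at -0.12, -2.03, 0.11 and -0.93 in aldosterone lungs, against -0.32, -2.32, -2.88 and -1.19 in controls. In replicates 1, 2 and 4 the lungs of the same number differed by 0.20, 0.29 and 0.26, and in replicate 3 by 2.99, so that 1 replicate number supplied most of the mean difference. That mean difference, 0.93 ± 0.62 (SE), was the highest of the class and ranked 29 of the 12168 (limma adjusted p = 0.9998). The groups overlapped.

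**Figure D2:**
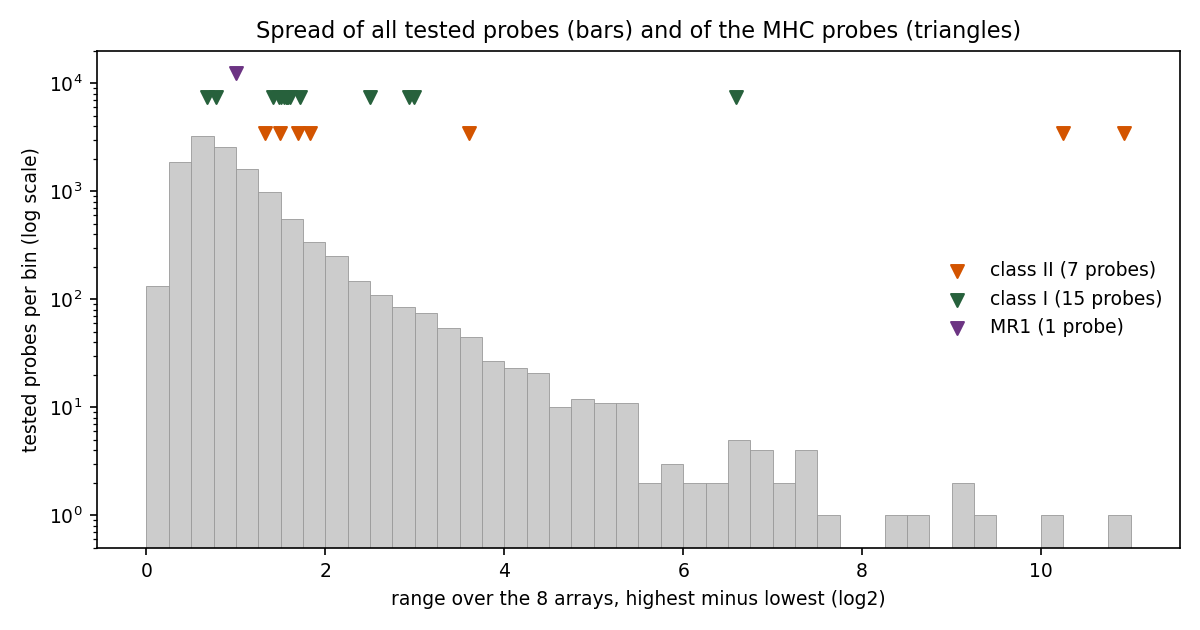
Histogram of the range over the 8 arrays (x axis, highest minus lowest log2 value) for all 12168 tested probes, with the number of probes per bin on a log scale (y axis), and the 23 tested MHC probes as triangles at arbitrary heights. OVAR-DQB1 at 10.93 and the first OVAR-DQA1 probe at 10.24 are the right-most probes of the array.

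No MHC chain passed the test for a change with aldosterone. Of the 12168 tested probes, 0 had an adjusted p under 0.05 (0%) and 229 had an unadjusted p under 0.05 (1.88%). Of the 15 class I probes 0 passed either threshold, and of the 7 tested class II probes likewise 0. In 0 of these 22 probes did the groups fail to overlap, against 1.31% of all tested probes. Class I was higher with aldosterone in 9 probes and lower in 6, with a median difference of 0.08, and 51.4% of all tested probes were higher, with a median of 0.01. Class II was higher in 2 and lower in 5, with a median of -0.16. The medians depended on single lungs: the class I median was 0.35 without aldosterone lung 3 and -0.15 without control lung 3, and the class II median was 0.12 without control lung 4. Within the first slide row the medians were 0.14 for class I and 0.07 for class II, and within the second row -0.04 and -0.39. The median standard error was 0.37 in either class and 0.20 over all tested probes.

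**Figure D3:**
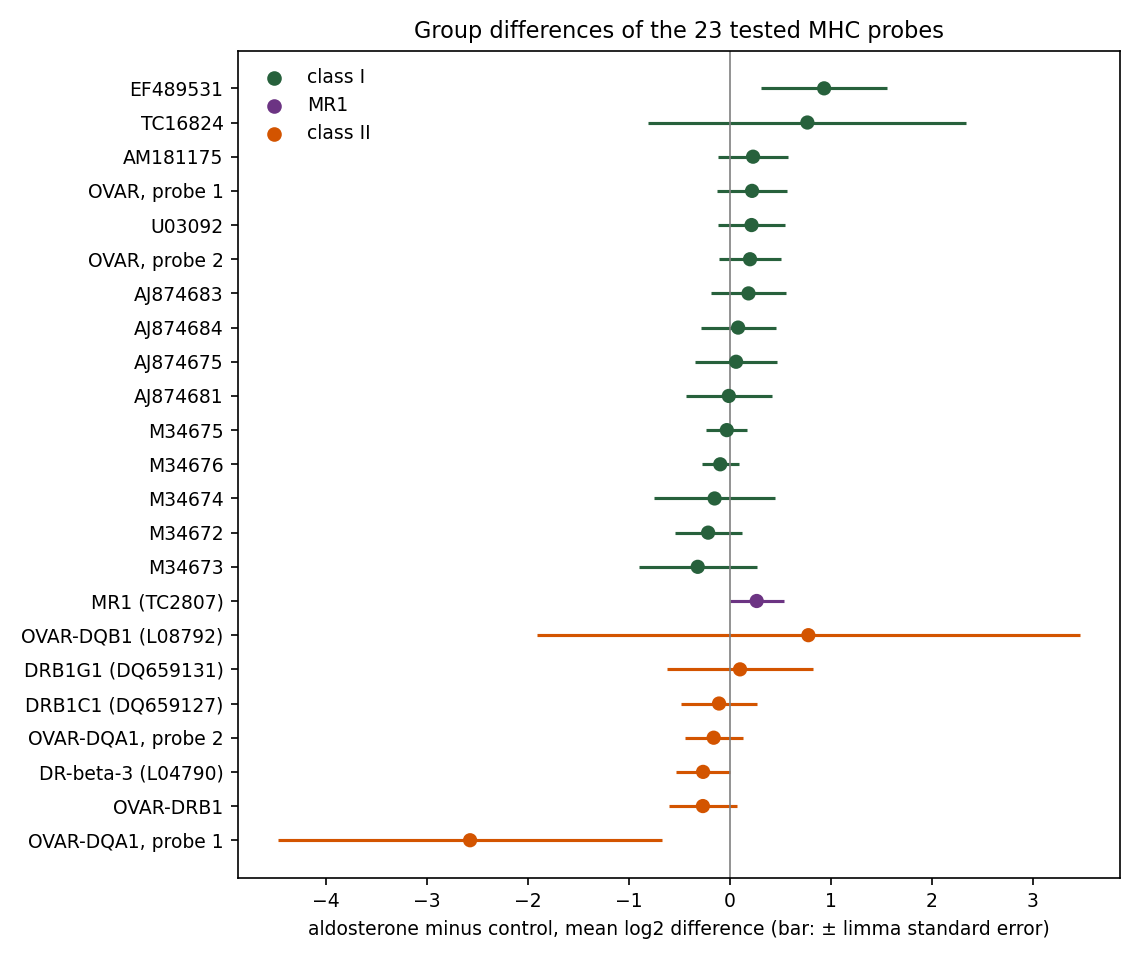
Mean log2 difference, aldosterone minus control (x axis), of the 23 tested MHC probes (y axis, by class and then by size), with bars of 1 limma standard error on each side, n = 4 lungs per group. The standard errors are from the fit without the replicate number as a block. The first OVAR-DQA1 probe lies lowest at -2.57 and OVAR-DQB1 has the longest bar, 2.69 on each side.

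Heavy chains of class I varied mostly between replicate numbers and little within them. For 13 of 15 class I probes the range of the 4 means per replicate number was larger than any difference between lungs of the same number. The same held for 5 of 7 tested class II probes and for 55.6% of all tested probes. The median range of these means was 1.32 for class I and 1.04 for class II, against 0.53 over all tested probes. Wide spread between numbers was thus seen in both classes. The size of each probe's median difference within a number had a median of 0.18 for class I and 0.74 for class II, against 0.22 over all tested probes. A range and a median are unlike measures, so each is compared with all tested probes only. With the replicate number as a block the median standard error was 0.136 for class I and 0.296 for class II, against 0.144 over all tested probes. Still 0 of 15 class I and 0 of 7 class II probes had an unadjusted p under 0.05, against 4.42% of all tested probes in that fit. The smallest unadjusted limma p of that fit was 0.107 in class I and 0.155 in class II.

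The class I gene M34674 shows this pattern. It stood at 6.37, 6.69, 4.23 and 5.23 in aldosterone lungs, against 6.27, 6.73, 4.77 and 5.36 in controls. The lungs of each number lay within 0.53 of each other, while replicates 2 and 3 were 2.21 apart in their means. The probe of the class I gene M34673 had the same order of aldosterone lungs, at 6.30, 6.84, 3.91 and 5.71 in aldosterone lungs against 6.56, 6.44, 5.34 and 5.69 in controls, and its difference of -0.32 ± 0.59 (SE, limma adjusted p = 0.9998) was the lowest of the class. Aldosterone lung 3 was the lowest lung for both.

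The OVAR gene, the class I antigen with a RefSeq record, was read by 2 probes. The first stood at 5.32, 5.41, 5.12 and 6.16 in aldosterone lungs, against 5.04, 5.29, 4.60 and 6.20 in controls. The other, shown above beside the ShB probe, stood at 5.07, 5.37, 4.96 and 5.71 in aldosterone lungs, against 4.81, 5.35, 4.36 and 5.77 in controls. Both probes put the lungs numbered 4 highest and control lung 3 lowest, and their differences of 0.22 ± 0.35 and 0.20 ± 0.31 (SE) did not pass the test. With the replicate number as a block the standard errors were 0.13 and 0.15, and neither difference passed (limma adjusted p = 0.8792 for each). Without control lung 3 these 2 differences were -0.01 and -0.04.

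The remaining 9 class I probes had differences between -0.21 (M34672) and 0.23 (AM181175), none past the test, and their ranges ran from 0.68 (M34676) to 1.72 (AJ874681). M34676 and M34675 were the steadiest. M34676 lay at 7.26 to 7.84 with aldosterone and at 7.39 to 7.94 in controls, and M34675 at 6.52 to 7.22 with aldosterone and at 6.75 to 7.29 in controls. For all 15 class I probes the lowest lung was one of the pair numbered 3, the aldosterone lung for 8 of them and the control lung for 7. Control lung 4 was the highest for 7 probes. As class medians of the deviation from each probe's mean, the lungs stood at 0.16, 0.27, -0.44 and 0.38 with aldosterone, against -0.12, 0.24, -0.83 and 0.44 in controls.

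These probes are not independent readings. OVAR probe 2, U03092, AM181175 and AJ874683 overlapped each other in sequence with 1 to 6 mismatches, M34676, M34672, M34675 and M34674 were linked by overlaps with 4 to 8 mismatches, and AJ874681 and AJ874675 differed at 3 of 60 bases. A tag probe that the files tie to U03092, EE747284, had another pattern, at -0.34, 2.08, 0.22 and 1.87 in aldosterone lungs against -0.49, 1.75, 0.62 and 1.78 in controls. It was high in the lungs numbered 2 and 4 and low in those numbered 1 and 3, in both groups, and lungs of the same number differed by at most 0.40. Of the other tested tags tied to class I probes, FE030559 stood at 3.71, 4.01, 3.41 and 4.83 with aldosterone against 3.45, 3.89, 3.09 and 4.78 in controls. CO202444 lay at 3.94 to 4.98 with aldosterone and at 3.41 to 4.92 in controls. Both were highest in the lungs numbered 4 and lowest in control lung 3, as the OVAR probes were. DY491549 lay at 1.01 to 2.20 with aldosterone and at -0.37 to 1.74 in controls, lowest in control lung 3 too, while CN823697 had a range of 0.55 and was lowest in the lungs numbered 4.

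MR1, which presents vitamin B metabolites to a class of T cells, was dim, with values of -6.35 to -5.61 in aldosterone lungs and -6.58 to -5.58 in controls. Its difference was 0.27 ± 0.27 (SE, limma adjusted p = 0.9998).

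The DR chains of class II varied together over the lungs, and the sign of their difference was not the same in all replicate numbers. OVAR-DRB1, the main DR beta chain, stood at 1.94, 2.48, 1.93 and 2.56 in aldosterone lungs, against 2.59, 1.70, 2.29 and 3.39 in controls. The aldosterone lung was lower in replicates 1, 3 and 4, by 0.65, 0.36 and 0.83, and higher in replicate 2, by 0.78. The means were 2.23 ± 0.34 with aldosterone and 2.49 ± 0.70 in controls (SD, n = 4 each), a difference of -0.27 ± 0.34 (SE, limma adjusted p = 0.9998), and 0.03 without control lung 4.

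The probe for DR-beta-3 (L04790) stood at 2.09, 2.27, 1.80 and 2.30 with aldosterone, against 2.44, 1.80, 2.17 and 3.12 in controls. DR-alpha (M73983), the partner of every DR beta chain, lies outside the annotation rule and is given beside them. It stood at 2.95, 3.55, 2.87 and 3.18 with aldosterone, against 3.42, 2.79, 3.37 and 4.03 in controls. All 3 probes had control lung 4 highest and a higher aldosterone lung in replicate 2 alone, and their differences were -0.27, -0.26 and -0.26, none past the test.

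The 2 allele probes for OVAR-DRB1 did not show the same spread. The C1 allele probe (DQ659127) lay at 0.49 to 1.24 with aldosterone and at 0.17 to 2.00 in controls, a range of 1.83. The G1 allele probe (DQ659131) stood at -1.71, -2.66, -1.01 and -1.21 with aldosterone, against -0.98, -4.02, -1.58 and -0.41 in controls, a range of 3.61 that ranked 170 of 12168. Both lungs numbered 2 were its lowest, as they were for OVAR-DQB1. The DQA2 probe M93433, also outside the annotation rule, had the same 2 lungs lowest, at 0.49 with aldosterone, where the other 3 lungs had 1.60 to 1.85, and at 0.21 in controls, where the other 3 had 2.00 to 2.81. The other DQA2 probe, M93431, which differs from the second OVAR-DQA1 probe at 4 bases, had values of -0.30 to -0.06 with aldosterone and of -0.73 to 0.94 in controls.

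**Figure D4:**
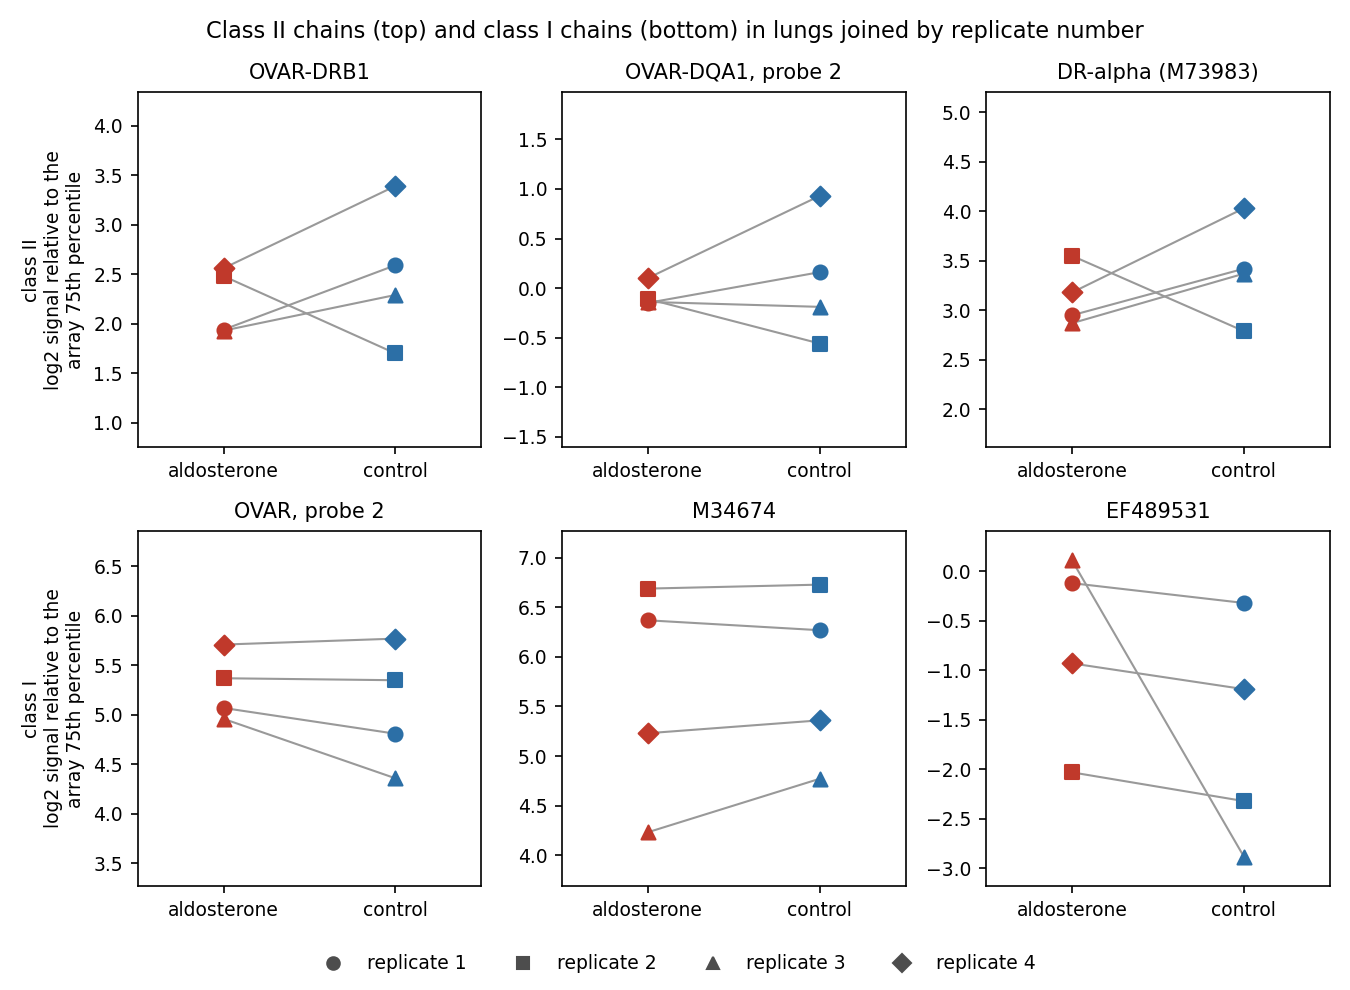
Log2 signal relative to the array's 75th percentile (y axis, the same span in every panel) of 3 class II probes (top) and 3 class I probes (bottom) in aldosterone lungs (left, red) and control lungs (right, blue), with lines joining lungs of the same replicate number. The lines of OVAR-DRB1 run in different directions, while those of M34674 are nearly level and lie apart.

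Taken by replicate number, all 7 tested class II probes were lower in the aldosterone lung in replicates 1 and 4, with median differences of -0.65 and -0.82. All 7 were higher in replicate 2, with a median of 0.77, and in replicate 3 they divided into 4 higher and 3 lower, with a median of 0.05. Over all tested probes 50.4% were lower in replicate 1, 54.0% in replicate 2, 49.6% in replicate 3 and 42.5% in replicate 4. Control lung 4 was the highest lung for 6 of the 7 and control lung 2 the lowest for 5. Class I medians by replicate number were smaller, at 0.24, 0.05, -0.10 and -0.01 in replicates 1 to 4. Of the 15 class I probes 13 were higher in the aldosterone lung in replicate 1, 9 in replicate 2, 7 in replicate 3 and 6 in replicate 4. The probes of a class share sequence and RNA, so their counts are not counts of independent readings.

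**Figure D5:**
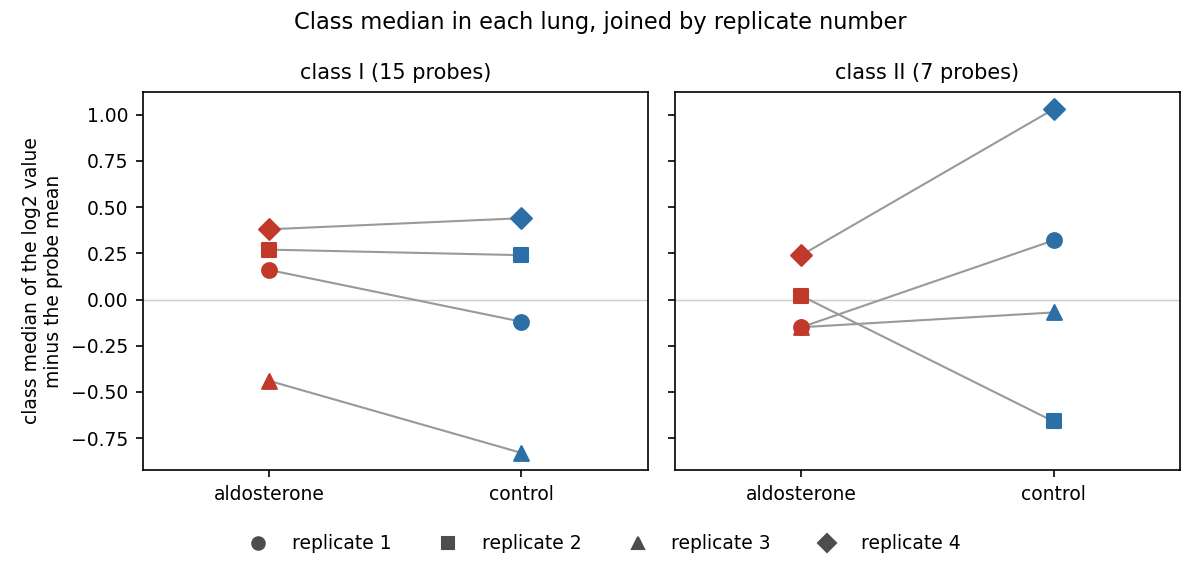
Class median of each probe's log2 value minus that probe's mean over the 8 arrays (y axis) in aldosterone lungs (left, red) and control lungs (right, blue), for 15 class I and 7 class II probes, with lines joining lungs of the same replicate number. Class I is lowest in both lungs numbered 3, and class II is highest in control lung 4 at 1.03 and lowest in control lung 2 at -0.66.

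Other genes of the 2 pathways were tested on the same arrays, 3 of a list of 14 for class I and 5 of a list of 12 for class II, and 0 of them passed the test. They were a light chain, proteasome parts, lysosomal proteases and the lipid-presenting CD1D, and the rest of both lists was not analysed here. For class I, 1 of 3 tested genes was higher and 2 were lower, with a median difference of -0.03. B2M, the light chain of every class I molecule, lay between 5.41 and 6.12 with aldosterone, against 5.39 to 6.23 in controls, and it too was lowest in the lungs numbered 3. PSMB8, a subunit of the immunoproteasome that cuts peptides for class I, had a difference of 0.24 ± 0.17 (SE) and was higher with aldosterone in 4 of 4 replicate numbers. PSME2, an activator of the proteasome, differed by -0.05 ± 0.15 (SE).

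Of the class II pathway list, all 5 tested genes had higher means with aldosterone, with a median difference of 0.21, whereas 5 of 7 class II chains had lower ones. CTSS, the cathepsin that trims the invariant chain, differed by 0.03 ± 0.36 (SE), and CTSB, another lysosomal protease, by 0.33 ± 0.18. Like PSMB8, CTSB was higher with aldosterone in 4 of 4 replicate numbers. Of the genes listed below, IFNG and AHSP were higher in 0 of 4. The share of all tested probes with the same sign in 4 of 4 was not computed. LGMN, an endopeptidase of the same compartment, differed by 0.21 ± 0.30. In replicate 2, where all class II chains were higher in the aldosterone lung, all 5 of these genes were higher too, with a median of 0.76. In replicate 4, where all class II chains were lower, 4 of the 5 were higher.

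Interferon response genes stood lower in the aldosterone lung of that same replicate 4. Of 10 tested, 9 were lower in it than in control lung 4, with a median difference of -1.10, and 5 had control lung 4 as their highest lung. In replicate 1, where all 7 class II probes were lower, 9 of the 10 were higher with aldosterone, with a median of 0.24, and in replicates 2 and 3 the medians were 0.02 and 0.34. ISG15, a ubiquitin-like protein induced by interferon, stood at 2.11, 2.34, 0.76 and -0.69 with aldosterone, against 0.78, 3.30, 0.28 and 3.85 in controls. IRF1, a transcription factor that acts on class I promoters, stood at -1.38, -1.55, -1.49 and -1.63 with aldosterone, against -1.60, -2.06, -1.96 and 1.42 in controls. Control lung 4 thus stood apart for IRF1, and it was the highest lung for 6 of 7 class II probes. Over all replicates 3 of the 10 interferon genes were higher and 7 lower with aldosterone, with a median of -0.27, and 0 passed the test. The part of this in the class II values was not tested.

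Markers of the cells that carry class II were set beside the chains in the same way. Of 8 tested macrophage, monocyte and dendritic cell markers, 7 had higher means with aldosterone, with a median of 0.18, and 0 passed the test. In replicate 2, 6 of the 8 were higher in the aldosterone lung, with a median of 1.00, and in replicate 1, 6 of the 8 were lower, with a median of -0.29. The markers divided into 4 higher and 4 lower in replicate 3, with a median of 0.05. In replicate 4, 5 were lower, with a median of -0.22. Their medians in the lungs, as deviations from each gene's mean, were -0.28, 0.90, -0.62 and 0.18 with aldosterone, against -0.01, -0.26, -0.47 and -0.07 in controls. Aldosterone lung 2 thus stood highest for the macrophage markers, and LYZ, the lysozyme of macrophages, reached 0.52 there against -2.58 to -1.34 in the other 7 lungs. The B cell marker CR2, a complement receptor, was highest in the lungs numbered 4 of both groups, at -2.53 with aldosterone and -2.70 in the control. Of 7 T and natural killer cell markers 5 were tested, 3 higher and 2 lower, and CD4 and CD28 were well above background in none of the lungs. For alveolar type II cells, 1 of 3 markers was higher and 2 were lower, with a median of -0.10. By replicate number 0 of these 3 were higher with aldosterone in replicate 1, 3 in replicate 2, 1 in replicate 3 and 0 in replicate 4, with medians of -0.41, 0.26, -0.59 and -0.08. In replicates 1, 2 and 4 these are the signs of the class II medians. The macrophage, monocyte and dendritic cell medians had the signs of the class II medians in all 4 replicates, and the leukocyte marker ITGB2 in replicates 1, 2 and 4. CR2 and the medians of the T and natural killer cell, endothelial and red blood cell markers each departed from those signs in at least 1 of replicates 1, 2 and 4. These are signs only, some of medians near 0. By lung the patterns differed: class II had its highest median, 1.03, in control lung 4, where the macrophage, monocyte and dendritic cell markers stood at -0.07. Those markers were highest in aldosterone lung 2, at 0.90, where class II stood at 0.02. With aldosterone 7 of 8 of these markers had higher means, while 5 of 7 class II probes had lower ones. The leukocyte integrin ITGB2 differed by 0.14 ± 0.40 (SE), 1 of 3 endothelial markers was higher and 2 were lower, and the 3 red blood cell markers HBB, AHSP and CA1 had lower means with aldosterone, with a median of -0.72 and none past the test. The part of these cells in the class II values was not tested.

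Among 631 named genes outside the MHC, those whose profile over the 8 arrays was most like the mean class I profile were CRYAB at a Pearson r of 0.94, ATP7B at 0.91, TNNC2 at 0.90, SCNN1A at 0.88 and SLC5A1 at 0.84. SLC5A1 stood at -8.18 in aldosterone lung 3 and at -7.93 in control lung 3, below the floors of those arrays, -6.87 and -6.74. For class II the most alike genes were CYP1A1 at 0.82, LPL and HSD11B1 at 0.79, ADRB1 at 0.78 and RCAN1 at 0.76. These are the highest of 631 values over 8 arrays, among which twins share a dam, so they describe the arrays and carry no test. The mean class profiles are weighted by the widest probes, OVAR-DQB1 and the first OVAR-DQA1 probe for class II and TC16824 for class I. Between the 2 class profiles themselves r was 0.07.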

How the data were processed

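RNA from 8 fetal lungs, 4 aldosterone and 4 control, was measured on 1-colour arrays. The authors deposited spot intensity on a linear scale, made per the file headers with Agilent Feature Extraction 10.1.1.1, which subtracts background and puts surrogates in place of values near it. In the series table that the authors deposited, log2 values equal the log2 of these intensities less a constant per array; it served as an alternative. From the intensities, log2 of the processed signal less each array's 75th percentile over non-control spots was computed, spots of a probe were averaged and 74 values with outlier flags were left out, none of an MHC probe. Low surrogates thus enter means as they are, which widens the spread of dim probes.

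The comparison used limma 3.58.1 in R 4.3.3 with lmFit and eBayes, group only, two-sided, over the 12168 probes that 4 or more of the 8 arrays showed well above background, with Benjamini-Hochberg adjustment at 0.05. The members, lists and tests were chosen with earlier results of these data known. Every probe of the annotation rule was accounted for. Values per lung were given for OVAR-DRB1, OVAR-DQA1, other class genes with a symbol and the 3 probes per class of largest difference, and the others were described by range or as examples chosen after their values were seen. Genes of the lists were read by their brightest probe. Names came from the files and the RefSeq table, for 1239 probes. After group means were removed, same-numbered samples correlated at 0.446, 0.275, 0.28 and 0.538 over 12146 probes, and others at -0.449 to 0.204, so, with the twin design, same numbers were treated as twins. Same-numbered arrays also lie in the same slide row. The fit was tested on simulated data. Alternatives were the replicate block, normexp with quantile normalization, median centring, other background filters, the deposited log2 values, a slide row block, array weights and leaving out each sample; the 2 slide rows taken alone were added after seeing the data.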

Additional observations from a re-analysis of the deposited data

Results flagged for a closer look

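Among 48 groups of 4 lungs, 3 held a lung that stood apart from the others of its group by Dixon's test, of which chance gives about 1 in 20 groups. The class I probe M34672 was 4.36 in aldosterone lung 3, against 5.73 to 5.81 in the other aldosterone lungs and 5.26 to 5.90 in controls. The first OVAR-DQA1 probe was -8.99 in aldosterone lung 3, not well above background, against -0.40 to 0.67 in the other aldosterone lungs. The second OVAR-DQA1 probe was 0.10 in aldosterone lung 4, against -0.15 to -0.11 in the other aldosterone lungs, a gap within the spread of the controls, -0.56 to 0.93.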

How the results depend on the processing

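The count of probes past the threshold was 0 in all 18 alternative settings. The class medians kept their sign under normexp, median centring, both background filters and the deposited values. The background filters change which probes enter a median and not the difference of any probe. Each replicate number and each slide row held as many aldosterone as control lungs, so neither block could change the difference of an MHC probe. The medians of 0.0825 for class I and -0.1594 for class II under both blocks are therefore no check of their sign. With the replicate numbers as a block, 538 probes in place of 229 had an unadjusted limma p under 0.05, and that block changed no call. Array weights gave -0.1159 for class I and 0.1166 for class II, and both classes turned sign in 1 of the 2 slide rows. Leaving out 1 lung gave class I medians of -0.1534 to 0.3482 and class II medians of -0.5308 to 0.1219. No direction below passed a test in any setting, and the cause of each turn was not tested.

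With 1 lung left out at a time, the difference of these class I probes turned in at least 1 setting, over the ranges M34676 -0.1875 to 0.014, OVAR probe 1 -0.0058 to 0.5259, U03092 -0.0599 to 0.4345, AM181175 -0.0339 to 0.4613, OVAR probe 2 -0.0367 to 0.4332, AJ874681 -0.2859 to 0.3722, AJ874683 -0.1528 to 0.4234, M34672 -0.3413 to 0.1409, M34675 -0.124 to 0.1111, TC16824 -0.2166 to 1.8303, M34674 -0.505 to 0.3158, M34673 -0.7005 to 0.2775, AJ874675 -0.2218 to 0.4018 and AJ874684 -0.1534 to 0.4065. The same held for the class II probes OVAR-DRB1 -0.5308 to 0.0337, OVAR-DQB1 -1.3818 to 2.9447, DQ659131 -0.6549 to 0.5477, DQ659127 -0.3815 to 0.2286, OVAR-DQA1 probe 2 -0.374 to 0.1219 and M93431 -0.4903 to 0.0688. Differences that turned elsewhere were DQ659131 -0.0173 with normexp and quantile normalization, and AJ874675 -0.1888, AJ874684 -0.1461, DQ659127 0.2687, OVAR-DQA1 probe 2 0.1166, M93433 0.2286 and M93431 0.1225 with array weights. Within the first slide row alone, added after seeing the data, they were AJ874681 0.1325, M34672 0.0694, M34675 0.1231, TC16824 -1.6736, M34674 0.0324, M34673 0.0703, L04790 0.067, OVAR-DRB1 0.0657, DQ659127 0.0242, OVAR-DQA1 probe 2 0.0706 and M73983 0.1494, and within the second row AJ874675 -0.052, AJ874684 -0.0549 and DQ659131 -0.1132.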
